A study of Rattus norvegicus with 6 samples.

Results

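Glutamate receptors and the postsynaptic machinery that holds them were followed in the striatum of manganese-exposed rats through 6 genes of the 32552 in the count table. They are the NMDA receptor subunit genes Grin1, Grin2a and Grin2b, the AMPA receptor subunit gene Gria1, the scaffold gene Dlg4 (PSD-95) and the kinase gene Camk2a. Members were taken by Ensembl gene ID and kept where the chromosome was the one listed for that gene, which held for 6 of 6, and all 6 passed the filter on low counts. Poly(A)-selected RNA had been sequenced from the striatum of male Sprague-Dawley rats, with 3 control samples (1, 2 and 4) from rats injected intraperitoneally with 0.9% NaCl and 3 Mn-exposed samples (13, 14 and 17) from rats injected by the same route with MnCl2 at 25 mg/kg, over 15 days. The sources used here give neither the age of the rats nor the interval between injections. Each sample has its own ID, but the labels do not say that each is a different rat, and the p-values therefore cover sample-to-sample spread only. Values for single libraries are given in the order control 1, 2 and 4, then Mn-exposed 13, 14 and 17.

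The striatum receives dense glutamatergic input from the cortex and thalamus onto its spiny projection neurons. AMPA receptors carry the fast part of the excitatory current, and NMDA receptors, which open only when glutamate binds and the membrane is depolarised, admit calcium. The obligatory NMDA subunit GluN1 pairs with GluN2 subunits that set how long the channel stays open, PSD-95 anchors the GluN2 tails, and the kinase CaMKII is activated by the calcium that enters. Excess manganese accumulates in the basal ganglia, and the study's title concerns mitochondrial dynamics in its toxicity.

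On the Rnor_6.0 build of the counts, Grin1 (ENSRNOG00000011726) lay on chromosome 3 from 2506896 to 2534663 on the minus strand, a span of 27.8 kb with 21 merged exons. Grin2a (ENSRNOG00000033942) lay on chromosome 10 from 5930298 to 6119990 on the plus strand, over 189.7 kb. Grin2b (ENSRNOG00000008766) had the widest span of the 6, with 439.5 kb of chromosome 4 (169560387 to 169999873, minus strand), of which 1.2% was exon. Gria1 (ENSRNOG00000045816) lay on chromosome 10 from 42614713 to 42760200 on the plus strand, over 145.5 kb. Dlg4 (ENSRNOG00000018526) was the most compact, with 26.2 kb of chromosome 10 (56627411 to 56653599, plus strand). Camk2a (ENSRNOG00000018712) lay on chromosome 18 from 56193978 to 56295869 on the plus strand, over 101.9 kb, with only 1514 exonic bases in the annotation used. Exons of Grin1 shared bases with 2 annotated genes on the other strand and those of Grin2b with 1. Those neighbours had at most 12 counts in any library, and the sources used here do not say how shared bases were counted.

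The RefSeq promoter table (GRCr8, another build than that of the counts) matched 3 of the 6 genes, and the strand agreed in all 3. The 250 bases before the start of Grin1 are shown because Grin1 is the subunit that every NMDA receptor needs and its level differed widely between libraries. They run over chr3:28528755-28529004 on the minus strand, 5′ to 3′, and capitals mark TGACG, the core of the cyclic AMP response element, or CGTCA, the same letters on the other strand.
Grin1: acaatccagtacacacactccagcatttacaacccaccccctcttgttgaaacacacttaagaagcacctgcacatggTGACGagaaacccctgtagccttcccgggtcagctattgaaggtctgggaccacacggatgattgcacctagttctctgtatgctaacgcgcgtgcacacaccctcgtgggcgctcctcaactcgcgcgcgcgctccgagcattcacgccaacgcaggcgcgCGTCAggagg
The core occurred 2 times before Grin1, starting 172 and 10 bases from the gene start, and 2 times before Camk2a, starting 150 and 92 bases from its start. It occurred 0 times before Dlg4. Over 33469 promoters of the same length, 18.2% held it at least once. The Camk2a stretches, of 30 bases each on the plus strand of chromosome 18, are shown to set the same core beside that of Grin1.
Camk2a, chr18:56649017-56649046: gggacctggatgcTGACGaaggctcgcgag
Camk2a, chr18:56649075-56649104: gaagccccaagctCGTCAatcaagctggtt
The GC box, GGGCGG on either strand, was found before 0 of the 3 genes and in 30.5% of all promoters. The EGR site, GCGNGGGCG on either strand with N for any base, was the other motif searched. It was found before 0 of the 3 genes and in 4.29% of all promoters. The Grin1 window held 19 CpG dinucleotides, the Camk2a window 10 and the Dlg4 window 5, where the median promoter held 5. A match is a description of letters only, and nothing in the counts measures binding there.

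Total counts per library ran from 21754379 to 32569760. Mitochondrial transcripts took 13.9% to 16.59% of counts in controls and 8.639% to 13.76% in Mn-exposed samples. Over all 15252 genes tested, edgeR's quasi-likelihood test called 0 at an adjusted p of 0.05, with 1139 at an unadjusted p under 0.05. DESeq2 called 86 of the 17656 genes to which it gave an adjusted p. Control 1 was the lowest control for all 6 genes. Mn-exposed 13 was the lowest exposed library for the 4 receptor genes, though barely so for Grin2b, and not for Dlg4 or Camk2a. Fold changes are therefore also given without control 1 and Mn-exposed 13. Markers of striatal neurons and of other cell types were not analysed here, since the files do not pair IDs with names. The other glutamate receptor and scaffold genes were not analysed for the same reason, and the tissue label was not checked.

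Exposure to manganese was compared with saline to ask whether transcripts of glutamate receptors and their postsynaptic partners differ. None of the 6 genes passed edgeR's test (0 of 6, where 0.00% of all genes tested did), and 0 of 6 had an unadjusted p under 0.05 (7.47% of all genes). DESeq2 called 0 of 6 as well, where it called 0.487% of the genes it gave an adjusted p, and 0 of 6 with the ID number as a block, where it called 1.83%. Groups overlapped for all 6, while 12.1% of all genes had groups that did not. The 4 receptor subunit genes had positive estimates and Dlg4 and Camk2a negative ones. The median log2 fold change of the 6 was 0.12, against 0.02 over all genes tested, and 52.6% of all genes were above 0. Levels are given as CPM, reads of a gene for every 1000000 reads of the TMM-adjusted library, and fold changes come from the edgeR fit over all genes. In bulk tissue, fewer cells of a type and less RNA per cell cannot be told apart.

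Grin1 encodes GluN1, which binds glycine or D-serine and without which no NMDA receptor reaches the surface. The controls read 265.3, 449.9 and 488.5 CPM, and the Mn-exposed libraries 375.9, 477.8 and 517.2 CPM. Control 1 was the lowest library and Mn-exposed 13 the next, while the 4 others lay close together, and the groups overlapped. Control libraries averaged 401.2 ± 119.3 CPM (SD, n = 3) and exposed ones 457 ± 72.93 (SD, n = 3). The fitted log2 fold change was 0.19 (SE 0.25, adjusted p = 0.839 with edgeR), a 1.14-fold estimate whose 95% interval ran from 0.752-fold to 1.72-fold. Without control 1 the estimate was -0.039 (SE 0.17), and without both control 1 and Mn-exposed 13 it was 0.067 (SE 0.13).

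Grin2a encodes GluN2A, the subunit that predominates in mature synapses and gives the channel fast kinetics. It was the scarcest of the 6 genes and the one that varied most, at 15.12, 55.26 and 53.26 CPM in controls. The exposed libraries read 28.26, 72.84 and 41.07 CPM. Both the lowest library (control 1) and the highest (Mn-exposed 14) stood far from the others of their group. The coefficient of variation was 54.9% among controls, above that of 95.9% of the genes tested, and 48.4% among Mn-exposed samples. Counting error was much smaller: at 319 reads, the fewest in any library, it came to 5.6%. The log2 fold change was 0.20 (SE 0.52, adjusted p = 0.916 with edgeR), and the 95% interval, 0.489-fold to 2.7-fold, was wide enough to hold a 2-fold difference in either direction. It was -0.20 without control 1 and -0.25 without Mn-exposed 14.

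Grin2b encodes GluN2B, the slower subunit that is abundant in the developing forebrain and remains so in adult striatum. Its level was 49.39, 85.55 and 92.35 CPM in the controls, again with control 1 well below. The Mn-exposed libraries gave 76.98, 80.13 and 77.81 CPM, nearly the same value in all 3. Their coefficient of variation was 2.08%, a spread that 1.73% of the genes tested matched or undercut, against 30.5% among controls. These libraries held 1686, 2099 and 2304 reads of the gene. Counting error was 3.1% at 1042 reads, the fewest in any library, but that library is control 1. It is smaller at the higher counts of the exposed libraries, and their spread of 2.08% is of the size of counting error. With n = 3 this spread does not show that exposed samples are uniform. The log2 fold change was 0.05 (SE 0.23, adjusted p = 0.958 with edgeR), with a 95% interval from 0.715-fold to 1.49-fold. Without control 1 the estimate was -0.18 (SE 0.10, adjusted p = 0.723 with edgeR).

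Gria1 encodes GluA1, an AMPA receptor subunit whose insertion at synapses accompanies long-term potentiation. The 3 controls gave 86.74, 189.2 and 178.2 CPM, and exposed samples gave 144.4, 176 and 226.5 CPM. The order repeated that of Grin1 at both ends, with control 1 lowest, Mn-exposed 13 next and Mn-exposed 17 highest. The log2 fold change of 0.27 (SE 0.31, adjusted p = 0.816 with edgeR) was the most positive of the 6, and its 95% interval ran from 0.723-fold to 2.01-fold. Without control 1 it was -0.012 and without Mn-exposed 17 it was 0.08.

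Dlg4 encodes PSD-95, the scaffold whose PDZ domains hold GluN2 tails and AMPA receptor auxiliary proteins at the synapse. Controls gave 973.6, 1105 and 1235 CPM, and the libraries from exposed rats 1111, 827.1 and 1078 CPM. Mn-exposed 14 was the lowest library here, and control 1 was not set apart. The log2 fold change was -0.14 (SE 0.18, adjusted p = 0.835 with edgeR), and the 95% interval, 0.679-fold to 1.22-fold, was narrower than for any receptor gene. Without Mn-exposed 14 the estimate was -0.0070.

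Camk2a encodes the alpha subunit of CaMKII, one of the most abundant proteins of the postsynaptic density. Controls read 885.9, 1039 and 1167 CPM. The Mn-exposed libraries gave 979, 897.3 and 991.4 CPM, all inside the range of the controls. The log2 fold change was -0.11 (SE 0.16, adjusted p = 0.851 with edgeR), with a 95% interval from 0.716-fold to 1.2-fold. A 1.5-fold difference in either direction lay outside the intervals of Dlg4 and Camk2a and, narrowly, outside that of Grin2b (0.715-fold to 1.49-fold). Scaling by library size alone moved the median of all genes from 0.02 to 0.12 and gave -0.031 for Dlg4 and -0.0023 for Camk2a, while under it Gria1 stood at 0.38, Grin1 at 0.30, Grin2a at 0.31 and Grin2b at 0.15.

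**Figure D1:**
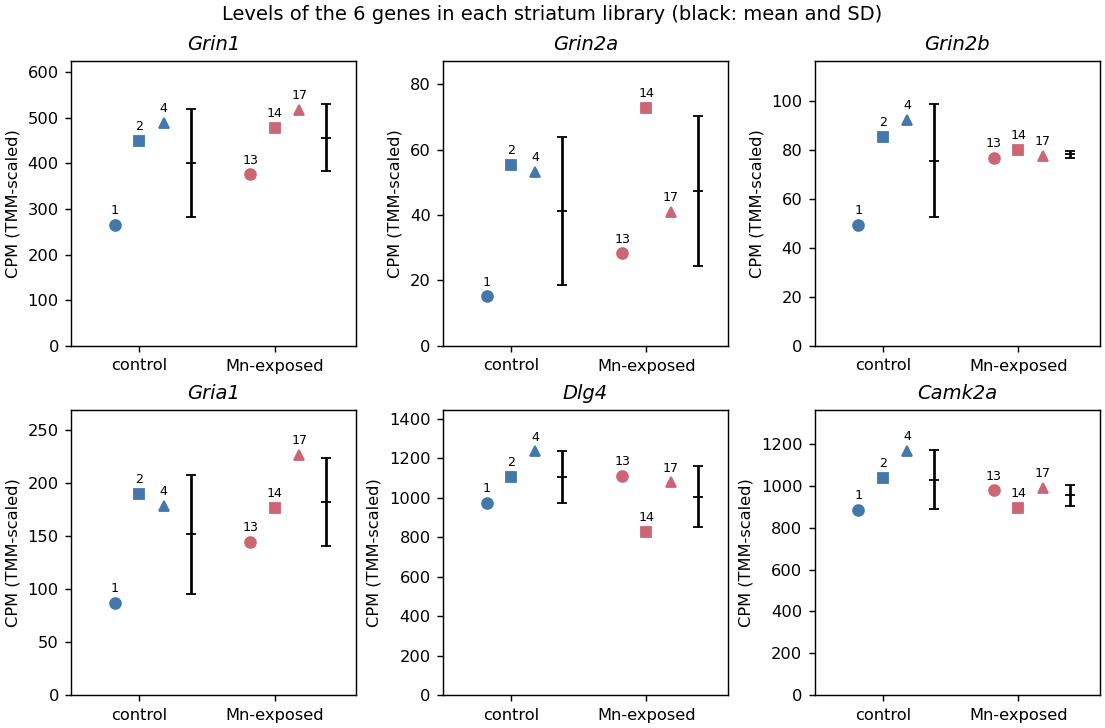
TMM-scaled CPM (vertical axes, from 0) of each gene in the 3 control and 3 Mn-exposed libraries, which are numbered, with the mean and SD of each group in black. Control 1 is the lowest library in 5 of the 6 panels, and the groups overlap in all of them.

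Much of the spread lay between libraries of the same group and was shared by the receptor genes. Control 1 was the lowest of the 6 libraries for 5 of 6 genes, against 26.2% of all genes tested, and Dlg4 was the exception. Control 1 and Mn-exposed 13 were together the lowest pair for all 4 receptor genes and for 16.8% of all genes. In control 1, log2 CPM minus the mean of the 6 libraries was -1.38 for Grin2a, -0.88 for Gria1, -0.66 for Grin1 and -0.61 for Grin2b. In the same library it was -0.10 for Dlg4 and -0.16 for Camk2a. Leaving out control 1 changed the sign of 4 of the 4 positive estimates, while 15.5% of all genes above 0 changed sign with it. Since control 1 was the lowest library for these 4 genes, leaving it out was bound to lower their estimates. The 15.5% is over all genes above 0, whether or not control 1 was lowest in them, so the 2 shares are not alike. The 4 genes also varied together, and their sign changes are not separate results.

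**Figure D2:**
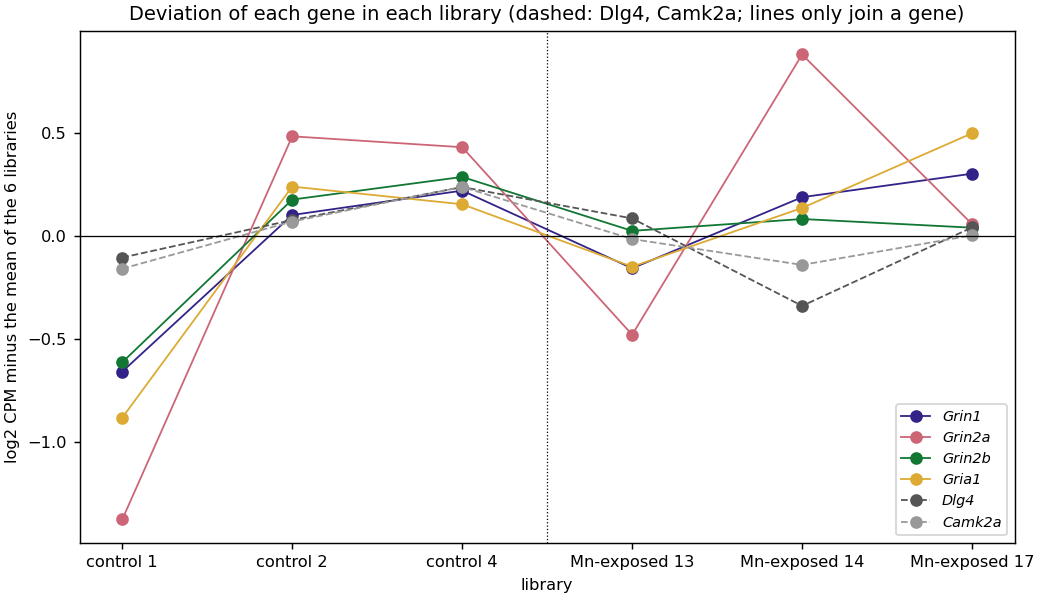
Log2 CPM minus the mean of the 6 libraries (vertical axis) for each gene in each library, with receptor genes as solid and Dlg4 and Camk2a as dashed lines that only join the points of a gene. The receptor genes share the low value of control 1, from -0.61 to -1.38, while Dlg4 (-0.10) and Camk2a (-0.16) stay near 0.

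Across the 6 libraries the 4 receptor genes went together, with Pearson r from 0.827 to 0.975 over their 6 pairs of log2 CPM. The highest was that of Grin1 with Gria1, on different chromosomes. Dlg4 and Camk2a had r = 0.862 with each other, and the 8 pairs of a receptor gene with either of them ran from -0.066 (Grin2a and Dlg4) to 0.720 (Grin2b and Camk2a). These are descriptions over n = 6 libraries that share depth, scaling and the low control 1. Among 15246 other genes, the profiles most like those of the 6 members on average were ENSRNOG00000031287 on chromosome 16 (4871650 to 5795825, minus strand, mean r 0.815) and ENSRNOG00000007727 on chromosome 4 (145117533 to 145147397, minus strand, mean r 0.814). The median gene had a mean r of -0.037. The first spans 924.2 kb and stood at 112.1, 267.1 and 295.5 CPM in controls and at 188.9, 189.7 and 248.9 CPM in exposed libraries. The second spans 29.9 kb and stood at 22.09, 34.45 and 39.47 CPM, then 30.09, 29.39 and 34.35 CPM. Their low values in control 1 follow from how they were chosen.

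Libraries also differed in how expression depended on the span of genes on the chromosome. For each library, log2 CPM minus the gene's mean over the 6 libraries was fitted on span, so a slope describes a library relative to their average. Per 10-fold longer gene the slope was -0.071, 0.017 and -0.014 in the controls and -0.040, 0.091 and 0.016 in the exposed libraries. The lowest slopes were those of control 1 and Mn-exposed 13. Over the 6 libraries the level of Grin2a followed this slope with r = 0.878, Grin1 with 0.736, Gria1 with 0.680, Grin2b with 0.565, Camk2a with -0.071 and Dlg4 with -0.504. The order of these r was not that of the members' own spans, with Grin1 (27.8 kb) above Gria1 (145.5 kb) and Grin2b (439.5 kb). As a separate measure, in control 1 alone, Grin1 and Dlg4 (26.2 kb) stood at -0.66 and -0.10 from their means. Camk2a (101.9 kb) and Gria1 stood at -0.16 and -0.88 there. With the span trend of each library removed, the log2 fold change of Grin2b was -0.019, that of Grin2a 0.15, that of Gria1 0.23 and that of Grin1 0.17, and 0 of 6 were called. Genes tested with a span of 300 kb or more, of which Grin2b is 1 of 354, had a median log2 fold change of 0.06, those of 50 to under 300 kb had 0.03, and those under 50 kb had 0.01. The mitochondrial share moved with the receptor genes in the other direction (r from -0.781 for Grin2a to -0.518 for Grin2b, n = 6). For Camk2a r was 0.162 and for Dlg4 0.550. Control 1 had both the highest share, 16.59%, and the lowest levels of the receptor genes, so these r lean on 1 library. The part of span or mitochondrial share in these levels was not tested.

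Beside the library numbers used here, the labels give an ID of C1, C2 and C3 to the controls and T1, T2 and T3 to the exposed samples. Equal ID numbers put control 1 with Mn-exposed 13, control 2 with 14 and control 4 with 17, and the labels do not say what the number stands for. Within these pairs Grin1 was higher in the Mn-exposed library in 3 of 3, by 0.50, 0.09 and 0.08 on the log2 scale, and 20.6% of all genes were higher in 3 of 3. Grin2a, Grin2b, Gria1, Dlg4 and Camk2a each differed in sign between pairs. With the ID number as a block the log2 fold change was 0.22 for Grin1 (SE 0.14, adjusted p = 0.501 with edgeR) and 0.32 for Gria1 (SE 0.18, adjusted p = 0.463 with edgeR), and 0 of 6 genes were called. At an unadjusted p under 0.05 the block also gave 0 of 6, against 13.9% of all genes.

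**Figure D3:**
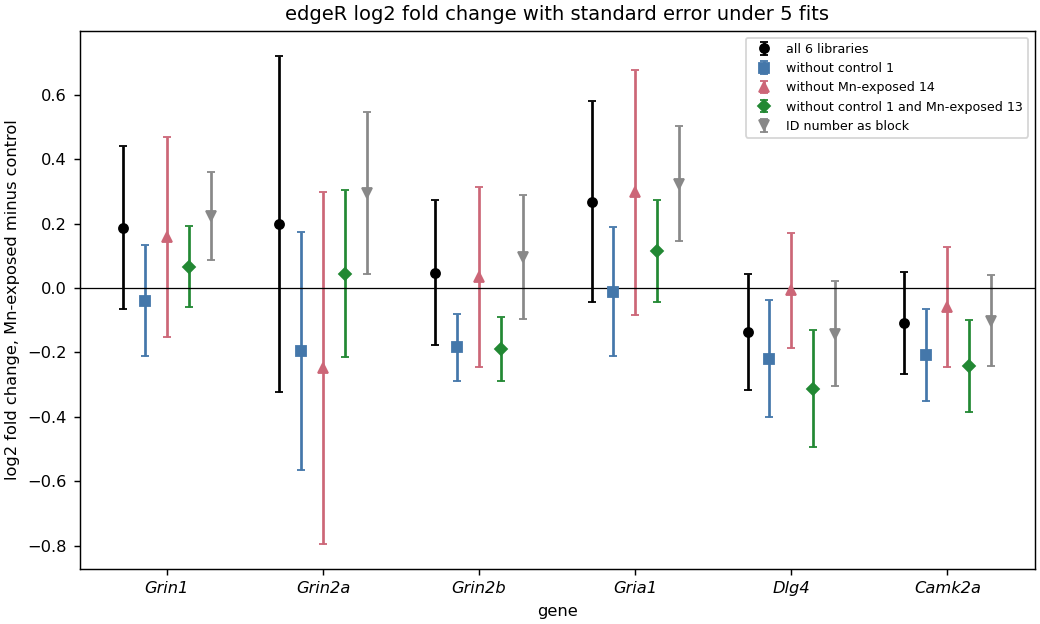
Log2 fold change, Mn-exposed minus control (vertical axis), with its standard error for each gene under 5 edgeR fits, marked by colour and shape. Without control 1 all 6 estimates are below 0, and with all 6 libraries those of the 4 receptor genes are above 0.

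Leaving out control 1 and Mn-exposed 13 together, 2 libraries per group remained. The log2 fold changes were then 0.07 for Grin1, 0.05 for Grin2a, 0.12 for Gria1, -0.19 for Grin2b (SE 0.10), -0.31 for Dlg4 (SE 0.18) and -0.24 for Camk2a (SE 0.14). None passed edgeR's test, with adjusted p = 0.394 for Grin2b, 0.439 for Dlg4 and 0.446 for Camk2a, while 0.377% of all genes did.

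Per kilobase of annotated exon, the levels kept 1 order in nearly every library. Camk2a was highest, at 680.7 ± 93.02 CPM per kb in controls and 631.4 ± 33.79 with exposure (SD, n = 3 in either group). Dlg4 followed at 342.4 ± 40.5 and 311.6 ± 48.1, and Grin1 at 77.28 ± 22.98 and 88.01 ± 14.05. Gria1 stood at 50.87 ± 18.9 and 61.25 ± 13.92, below Grin1 in each of the 6 libraries although their ranges over libraries overlapped. Grin2b (14.4 ± 4.39 and 14.88 ± 0.31) and Grin2a (9.68 ± 5.31 and 11.13 ± 5.39) were lowest and did not differ beyond their spread, and only in Mn-exposed 14 did Grin2a exceed Grin2b. These levels depend on the exons annotated in Rnor_6.0, since reads from transcript ends outside them were not counted.

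Ratios within a library do not depend on its scaling, and 6 were compared. Per exonic base, the ratio of Grin2a to Grin2b, the GluN2 subunits that compete for a place in the receptor, was 0.378, 0.798 and 0.712 in controls and 0.454, 1.12 and 0.652 in exposed libraries. The log2 difference between groups was 0.21 (two-sided exact permutation p = 0.8, adjusted over the 6 ratios 0.96), with SDs of 0.58 and 0.66 inside the groups. The ratio of Grin2b to Grin1 was almost the same in the 3 controls, at 0.184, 0.188 and 0.187, although both genes were low in control 1. In the exposed libraries it was 0.202, 0.166 and 0.149, on both sides of the controls, with a log2 difference of -0.12 (two-sided exact permutation p = 0.4, adjusted 0.6). The ratio of Gria1 to Grin1 lay between 0.570 and 0.764 in all 6 libraries (log2 difference 0.10, exact permutation p = 0.4, adjusted 0.6).

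The ratio of Dlg4 to Grin1 was 5.91, 3.95 and 4.07 in controls and 4.76, 2.79 and 3.35 in exposed libraries. Camk2a to Grin1 gave 11.4, 7.92 and 8.19 in controls and 8.93, 6.44 and 6.57 in Mn-exposed samples. Both ratios were lower on average in Mn-exposed samples, by -0.37 and -0.32 on the log2 scale, with groups that overlapped through Mn-exposed 13 (exact permutation p = 0.3 for each, adjusted 0.6). Without control 1 these differences were -0.18 and -0.16, without Mn-exposed 13 they were -0.58 and -0.48, and without both libraries -0.39 and -0.31. The ratios share Grin1 as denominator and are not separate evidence. Within the pairs of ID numbers both were lower in 3 of 3, and the exact sign-flip test gave p = 0.25, the smallest it can give with 3 pairs. The smallest p that 3 samples against 3 allow is 0.1, so these tests could not pass 0.05. Of the 6 ratios 0 had groups that did not overlap.

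**Figure D4:**
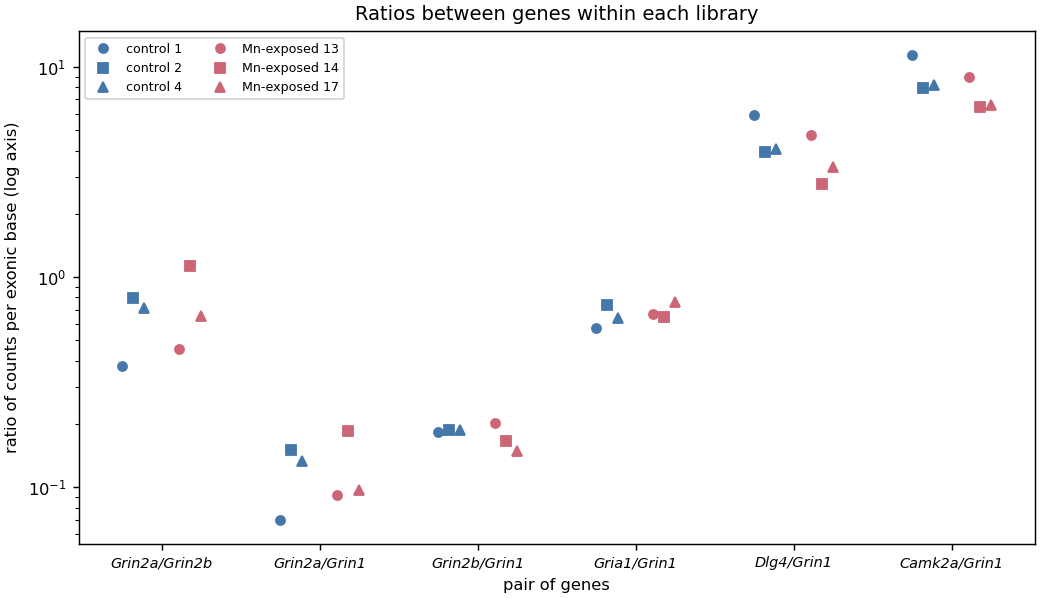
Ratio of counts per exonic base between pairs of genes (vertical log axis) in the 3 control (blue) and 3 Mn-exposed (red) libraries, with a marker shape for each ID number. Grin2b to Grin1 is nearly constant among controls, from 0.184 to 0.188, while Grin2a to Grin2b runs from 0.378 to 1.12 over the 6 libraries.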

How the data were processed

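Poly(A)-selected RNA of 6 striatum samples had been sequenced. The deposited values are raw counts of reads per Ensembl gene, which the authors made with bcl2fastq 2.17, STAR 2.5.2b and the build Rnor_6.0, per the submitters' processing notes. No source used here names the counting tool, annotation release or strand setting. Gene positions and exonic lengths are those of the file headers' columns. The series-wide table repeats these counts (0 cells differed).

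The members and lists were chosen with earlier results of these data known. The named genes are the 6 members and, by rule, the 2 other genes with the highest mean correlation to them. RefSeq symbols (GRCr8) lay on the same chromosome for 6 of 6 members, but that table holds 0 Ensembl IDs, so the other pathway genes and the cell type markers were not analysed here. After filterByExpr (15252 genes kept) and TMM scaling, the robust quasi-likelihood test of edgeR 4.0.16 (R 4.3.3) was fitted without a block, with Benjamini-Hochberg adjustment over all genes. Log2 CPM used a prior count of 2. Steps were tested on simulated data. Alternatives were other scalings and filters, DESeq2 1.42.0, limma-voom 3.58.1, the ID number as block, the gene span trend removed by lowess, mtDNA features left out and each replicate left out. Deviations from group means correlated at 0.417, 0.109 and 0.227 in the pairs of equal ID number, each above 0.1. The numbers were taken as pairs from these same data, since the labels name no litter, day or batch. Correlations between unequal ID numbers are not given here, so these values alone do not show that the numbers stand for pairs.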

Additional observations from a re-analysis of the deposited data

How the results depend on the processing

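The calls of the 6 genes did not depend on any setting run: 0 were called under every edgeR, limma-voom and DESeq2 fit. The count of changed genes over the whole table, 0, was also 0 under other scalings, filters, limma-voom, the replicate block, an adjusted p of 0.1 and each library left out. It was 86 with DESeq2, 276 with DESeq2 and the replicate block, and 58 without control 1 and Mn-exposed 13, the last 2 chosen after the data were seen, as were the DESeq2 fits with 1 library left out. Signs were less stable. Leaving out 1 library, log2 fold changes ran from -0.039 to 0.35 (edgeR) and -0.0565 to 0.34 (DESeq2) for Grin1, from -0.25 to 0.47 and -0.26 to 0.45 for Grin2a, from -0.18 to 0.21 and -0.20 to 0.20 for Grin2b, and from -0.012 to 0.46 and -0.0285 to 0.44 for Gria1. The negative ends came without control 1 and, for Grin2a, without Mn-exposed 14 (DESeq2 without control 1 gave -0.22). Dlg4 stayed between -0.24 and -0.0070 and Camk2a between -0.22 and -0.0097. Grin2b was -0.019 with the span trend removed and -0.19 without control 1 and Mn-exposed 13. The cause of these reversals was not tested. With the replicate block the log2 fold changes were 0.22 (Grin1), 0.30 (Grin2a), 0.095 (Grin2b), 0.32 (Gria1), -0.14 (Dlg4) and -0.10 (Camk2a), and the block changed no call. Its count at an unadjusted p under 0.05 was 2115, against 1139. With 1 library left out, the log2 ratio differences ran from -0.14 to 0.51 for Grin2a to Grin2b (-0.12 without control 1) and from -0.26 to 0.30 for Grin2a to Grin1 (-0.24 without Mn-exposed 14), which was -0.073 without control 1 and Mn-exposed 13. The other ratios kept their sign but not their size, from -0.25 to -0.024 for Grin2b to Grin1 (-0.024 without Mn-exposed 17), from 0.015 to 0.20 for Gria1 to Grin1 (0.015 without control 1), from -0.58 to -0.18 for Dlg4 to Grin1 and from -0.48 to -0.16 for Camk2a to Grin1. Counting error, which treats reads as independent molecules, was at most 5.6% for these genes in any library, and the part of depth in the calls was not tested.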
